A study of Mus musculus with 2 samples.

Results

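This report follows 36 genes of the cell cycle through the cells of the injured mouse kidney. They were taken from a fixed list of symbols, all 36 were found among the 32285 genes of both count matrices, and they were split by the phase in which they act: 2 cyclins of the G1 phase, 15 genes of the G1/S transition and of DNA replication (here S-phase members), and 19 genes of G2 and mitosis (here mitotic members). Single-cell suspensions of kidney were sequenced from the 3′ ends of transcripts in droplets, and each transcript was counted once through its molecular identifier (UMI). Kidneys were collected on day 14 after ischaemia-reperfusion injury of 1 kidney, made by clamping its artery, and both groups had received 4 tamoxifen injections after the injury. The control library came from mice without Cre (Cre-), and whether they carried the floxed allele is not stated. The haplodeficient library came from Cdh5-CreERT2;Phd3f/+ mice, in which tamoxifen activates a Cre driven by the promoter of vascular endothelial cadherin and 1 copy of Phd3 is floxed. Phd3 (gene symbol Egln3) is an oxygen-dependent hydroxylase of hypoxia-inducible factors. Each group is 1 library, both belong to batch 1 of the labels, and the number of animals in a library is not stated. No difference between the libraries therefore has a replicate check. Intervals below are 95% intervals that cover counting error only, and a difference belongs to these libraries before it belongs to the genotypes.

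A dividing cell passes from G1, in which D-type cyclins with their kinases respond to growth signals, through S phase, in which licensed origins fire and DNA is copied, to G2 and mitosis, in which cyclin B with Cdk1, the Aurora and Polo kinases and the spindle motors separate the chromosomes. Most S-phase genes are driven by E2F factors, while many mitotic genes are repressed outside G2 and mitosis by the DREAM complex and activated by B-Myb and Foxm1 through paired CCAAT boxes and cell-cycle homology regions (CHR). After ischaemic injury surviving tubule cells re-enter the cycle, and infiltrating and resident leukocytes also divide in the tissue.

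Promoters of 29 of the 36 members were matched by symbol in RefSeq (GRCm38.p6), and 4 are printed because the results below turn on these genes: Top2a and Mki67, common markers of dividing cells that are named in most comparisons, Mcm6, a replication gene, and Kif23, a mitotic member whose levels across cell types differed from the rest. Each is the 250 bases before the annotated start, read 5′ to 3′ on the gene's strand, which is the minus strand for all 4. Capitals mark CCAAT boxes (CCAAT or its reverse ATTGG), CHR elements (TTTGAA or TTCGAA on either strand) and E2F elements (TTTGGCGC, TTTCGCGC, TTTCCCGC or TTCCCGCC on either strand, where matches can share letters).
Top2a, chr11:99024190-99024439: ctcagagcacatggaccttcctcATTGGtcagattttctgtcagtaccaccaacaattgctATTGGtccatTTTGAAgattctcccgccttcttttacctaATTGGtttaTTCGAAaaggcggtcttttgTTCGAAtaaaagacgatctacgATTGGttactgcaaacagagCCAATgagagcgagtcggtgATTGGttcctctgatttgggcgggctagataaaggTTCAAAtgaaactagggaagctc
Mki67, chr7:135716380-135716629: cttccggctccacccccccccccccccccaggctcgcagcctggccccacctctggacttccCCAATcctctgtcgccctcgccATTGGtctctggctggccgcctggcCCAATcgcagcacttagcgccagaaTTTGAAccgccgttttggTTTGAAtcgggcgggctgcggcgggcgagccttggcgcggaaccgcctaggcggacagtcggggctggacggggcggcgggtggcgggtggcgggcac
Mcm6, chr1:128359706-128359955: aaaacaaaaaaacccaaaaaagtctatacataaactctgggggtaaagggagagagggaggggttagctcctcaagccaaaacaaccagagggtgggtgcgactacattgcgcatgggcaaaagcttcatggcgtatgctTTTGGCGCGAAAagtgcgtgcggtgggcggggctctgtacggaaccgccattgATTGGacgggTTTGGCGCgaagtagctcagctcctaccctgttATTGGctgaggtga
Kif23, chr9:61946800-61947049: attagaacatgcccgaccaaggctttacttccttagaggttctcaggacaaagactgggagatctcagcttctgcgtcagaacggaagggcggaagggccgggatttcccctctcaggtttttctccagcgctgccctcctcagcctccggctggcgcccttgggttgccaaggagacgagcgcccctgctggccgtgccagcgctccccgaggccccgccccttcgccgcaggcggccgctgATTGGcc

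The Top2a window held 6 CCAAT boxes and 4 CHR elements, the Mki67 window 3 and 2. The Mcm6 window held 3 E2F matches, of which 2 on opposite strands share letters and form 1 capital stretch, and 2 CCAAT boxes, and the Kif23 window held 1 CCAAT box and neither other element. A CCAAT box was present in 15 of 16 mitotic promoters and 8 of 13 S-phase promoters, against 34.5% of 27025 promoters of the same length. A CHR element was present in 7 of 16 mitotic and 2 of 13 S-phase promoters, against 17.4% of all. An E2F element was present in 6 of 13 S-phase promoters (Cdc6, Hells, Mcm5, Mcm6, Mcm7 and Rrm1) and in 1 of 16 mitotic promoters (Cdk1), against 2.98% of all. These are matches of letters and not measured binding sites.

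The control library held 134190236 UMIs and the haplodeficient library 114668145. Barcodes were kept from 500 UMIs and 200 genes upwards and up to a mitochondrial share of 50%. After that and after removal of 715 and 804 predicted doublets, 8737 control and 9222 haplodeficient cells remained, with medians of 8796 and 5482.5 UMIs and of 10.1% and 2.69% mitochondrial UMIs. The libraries thus differed in depth and in mitochondrial content, and 28 cell barcodes occurred in both. Egln3, the floxed gene, gave 23.9 CPM (counts per 1000000 UMIs of a class) in 272 control endothelial-like cells and 23.5 CPM in 631 haplodeficient ones, a ratio of 0.981 (0.681 to 1.43). Reads from the transcript's 3′ end may lie outside the deleted part, so this does not test the deletion. Cells were clustered without the members and without genes that follow them, and clusters were named from marker genes, so the names were rebuilt here and are written as X-like. Markers of 23 classes were listed, of which some named no cluster. The libraries were compared in the 13 named classes with at least 100 cells in each library. Some smaller classes and unnamed clusters are also described. A Cldn5- and Ptn-led cluster (93 control and 160 haplodeficient cells) and a Cldn5- and Sox17-led cluster (34 and 61 cells) each passed 11 of 11 endothelial markers. Both stayed unnamed, and the second also passed 9 of 9 pericyte or smooth muscle markers. The endothelial-like class, also for Egln3, does not include their cells.

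Among the 13 compared classes, mitotic members were highest in T cell-like cells in both libraries. Their summed level, the UMIs of all 19 members on the CPM scale, was 1136 CPM in 180 control and 673 CPM in 1040 haplodeficient T cell-like cells. Macrophage-like cells followed with 240 and 345 CPM in 769 and 1357 cells. The lowest control value was 20.7 CPM in 3140 proximal tubule-like cells, and the lowest haplodeficient value was 17.4 CPM, in 272 cells of the pericyte or smooth muscle-like class. The range over the 13 classes was 54.8-fold (control) and 38.7-fold (haplodeficient). Among populations with fewer than 100 cells in a library or with no name, high mitotic sums were found in dendritic cell-like cells (772 and 573 CPM in 63 and 67 cells), in haplodeficient NK cell-like cells (452 CPM in 135 cells, against 73.5 CPM from 5 UMIs in 19 control cells), in a Retnla-led myeloid cluster (578 and 212 CPM in 154 and 225 cells) and in a cluster led by Tnc, Tagln and Igfbp2 (1164 and 326 CPM in 92 and 285 cells). The Tnc-led cluster held Wt1 in 72.7% of its cells but Nphs1 in 11.4%, and its markers of podocytes and of pericytes did not settle a name.

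S-phase members spread far less across classes than mitotic members. Their summed level was highest in T cell-like cells, at 520 and 538 CPM, and lowest in proximal tubule-like cells in the control (79.4 CPM) and in neutrophil-like cells in the haplodeficient library (85.1 CPM). The range was 6.54-fold (control) and 6.33-fold (haplodeficient). Over the 13 classes the 2 sums had a Pearson correlation of 0.789 and 0.754 on the log2 scale and a Spearman correlation of 0.648 and 0.555. These describe 13 points that share a library and its free RNA. Droplets of 1 to 100 UMIs, which hold free RNA and no cell, gave 112 and 198 CPM of S-phase members and 64.1 and 120 CPM of mitotic members. The free RNA estimated within T cell-like cells gave 2.51 and 3.21 CPM of their mitotic sum, and that within thick ascending limb-like cells 3.60 and 5.67 CPM. The plot of summed levels by class shows both sets beside the free-RNA level.

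**Figure D1:**
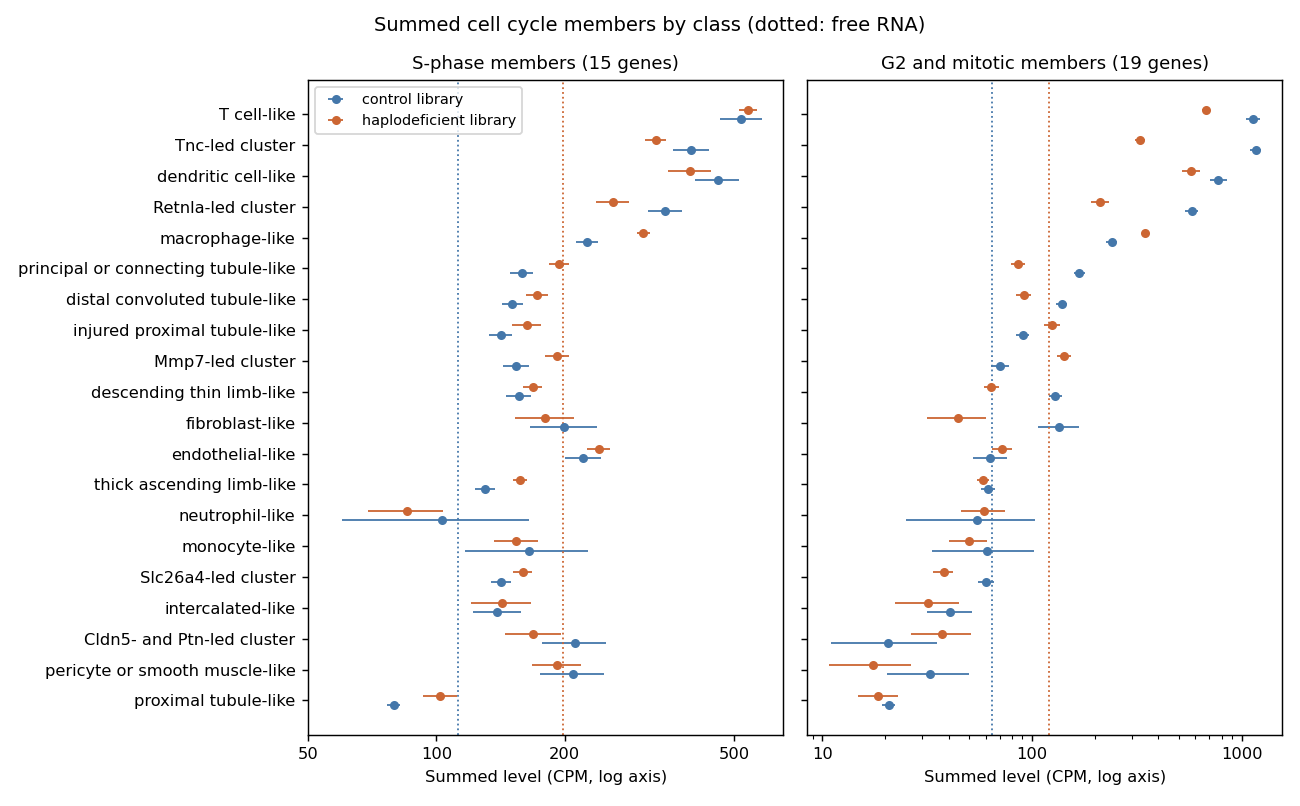
Summed level of the S-phase and the mitotic members in each class and library, in CPM on a log axis, with 95% Poisson intervals and the level in free RNA as a dotted line. Among the 13 compared classes T cell-like cells lead both sets, but the Tnc-led cluster has more control mitotic members (1164 against 1136 CPM). The mitotic members span 54.8-fold over the 13 compared control classes against 6.54-fold for the S-phase members.

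Most mitotic members followed the same order over the 13 compared classes. In each library 18 of the 19 had their highest level in T cell-like cells, and T cell-like cells came first and macrophage-like cells second for 14 control and 17 haplodeficient members. The exceptions to the first place were Bub1b, a spindle checkpoint kinase, in the control (42.1 CPM in fibroblast-like cells), and Kif23, a kinesin of the central spindle, in the haplodeficient library (34.5 CPM in thick ascending limb-like cells). Across the 13 classes the median Spearman correlation of a mitotic member with the summed level of the other mitotic members was 0.819 and 0.791. The S-phase members were less uniform, with 10 and 12 of 15 highest in T cell-like cells and median correlations with the mitotic sum of 0.418 and 0.544. Rrm2, the regulated subunit of ribonucleotide reductase, and Mcm5, a subunit of the replicative helicase, lay closest to the mitotic pattern among them, at 0.831 and 0.824 for Rrm2 and 0.824 and 0.813 for Mcm5.

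**Figure D2:**
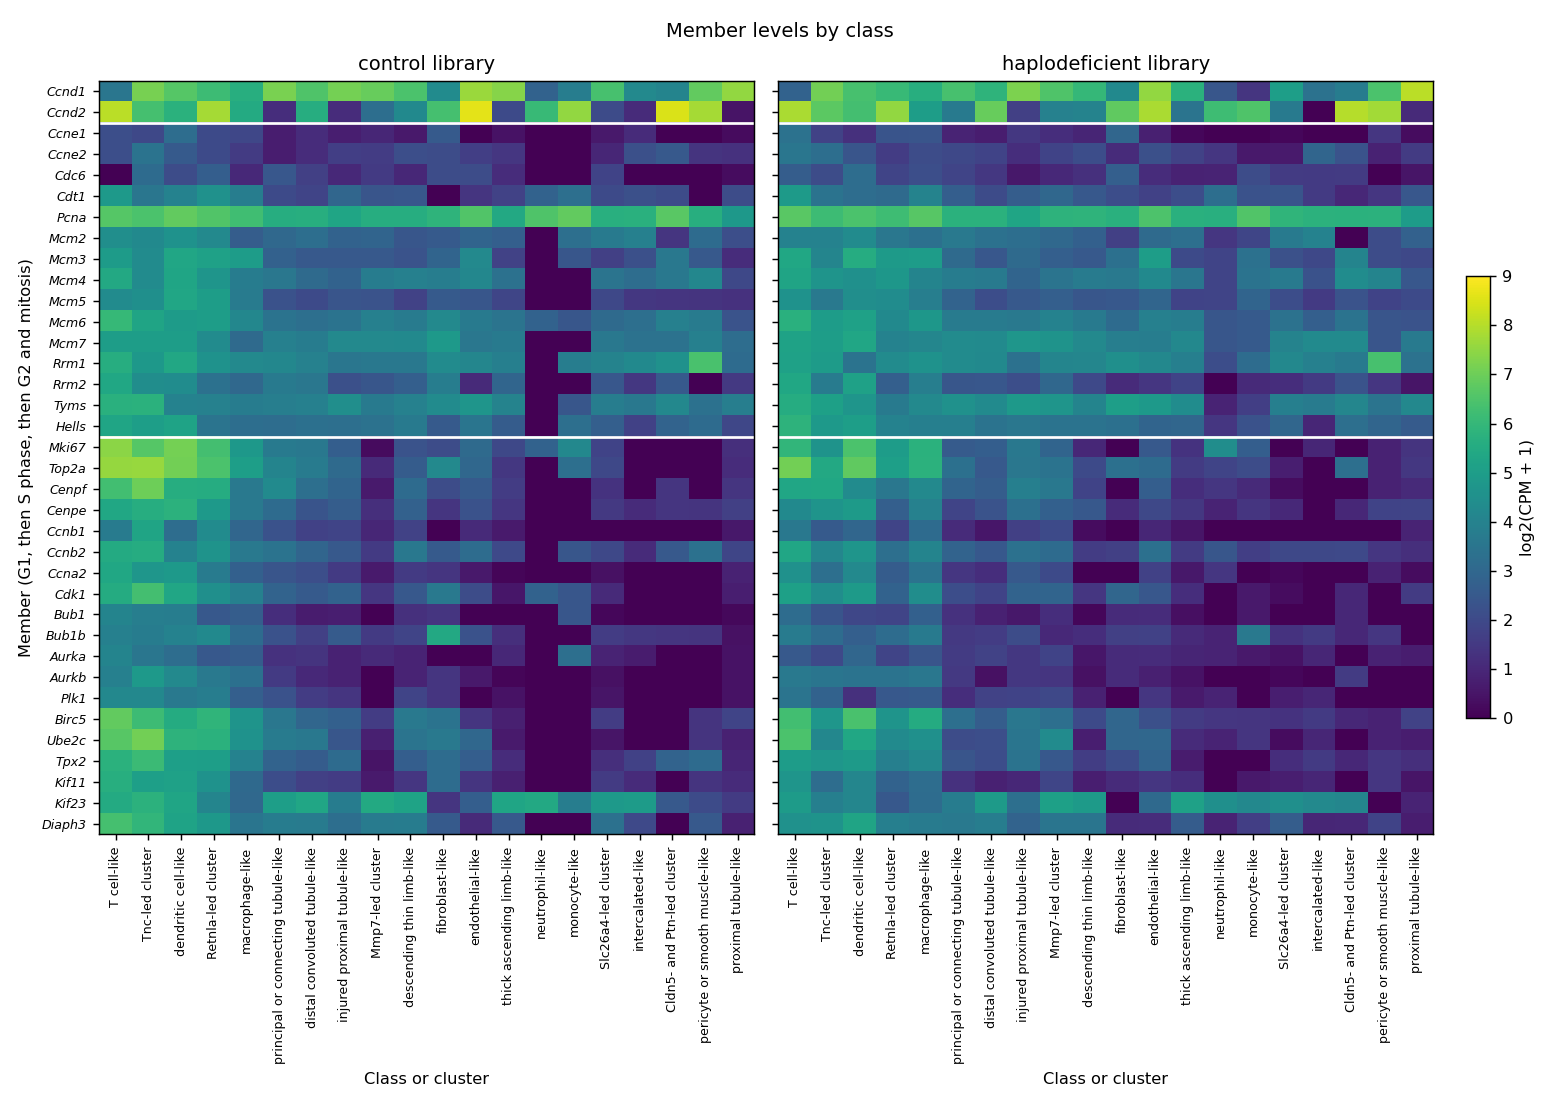
Level of each of the 36 members, as log2(CPM + 1), in 20 classes and clusters of both libraries, with white lines between G1, S-phase and mitotic members. In each library 18 of the 19 mitotic members have their highest level over the 13 compared classes in T cell-like cells, while Kif23, Pcna and Ccnd1 also have levels in tubule columns.

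In T cell-like cells every mitotic member was lower in the haplodeficient library. The sums of 1136 and 673 CPM gave a ratio of 0.592 (0.542 to 0.648), from 647 and 2173 UMIs. A fixed size rule called a gene different between the libraries when it changed at least 2-fold on the log2(CPM + 5) scale with separate 95% intervals, among genes that averaged 50 CPM or more and had 30 UMIs or more. By that rule 2.27% of 3127 eligible genes were called in T cell-like cells, and 1.5% were called lower. Among the mitotic members 6 of 19 were eligible, and 2 of these were called, both lower. The median log2 ratio of those 6 was -0.73, and that of all eligible genes was -0.06.

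The called members were Mki67, the proliferation antigen that coats mitotic chromosomes (GRCm38 chromosome 7, 135689784 to 135716361), and Diaph3, a formin of the cytokinetic actin ring (chromosome 14, 86655367 to 87141235). Mki67 had 97 UMIs in 24 of 180 control cells and 193 UMIs in 76 of 1040 haplodeficient cells, or 170 against 59.8 CPM, a log2 ratio of -1.44. Diaph3 had 46 UMIs in 18 control cells and 72 UMIs in 46 haplodeficient cells, or 80.8 against 22.3 CPM, a log2 ratio of -1.65. Both genes were lower in each of the 3 clusters of the class. Mki67 was 127 against 47.6 CPM in the Ctla4-led cluster, 181 against 86.5 CPM in the Cd8b1-led cluster and 263 against 13 CPM in the Il17a-led cluster, and Diaph3 was 63.7 against 16.8, 103 against 32.5 and 81.1 against 7.79 CPM. Reads of Diaph3 lie beside 2 overlapping genes on its own strand, and Mki67 overlaps a gene on the other strand.

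The other mitotic members of T cell-like cells lay below the size rule or below its minimum. Top2a, the topoisomerase that untangles replicated chromosomes, was 188 and 133 CPM, and Birc5 (survivin), a subunit of the chromosomal passenger complex, was 114 and 76.5 CPM. Ube2c, the ubiquitin-conjugating enzyme of the anaphase-promoting complex, was 100.07 and 86.4 CPM. Among spindle and kinetochore proteins, Cenpf was 77.2 and 39.0 CPM, Tpx2 52.7 and 30.3 CPM, Kif11 49.2 and 24.8 CPM, and Cenpe 40.4 and 18.3 CPM. The engine of mitotic entry was less unequal, with Cdk1 at 45.6 and 33.7 CPM, Ccnb2 at 43.9 and 38.7 CPM and Ccnb1 at 12.3 and 11.1 CPM. Its S-phase partner Ccna2 was 40.4 and 22.3 CPM. The kinases Plk1, Aurka, Aurkb, Bub1 and Bub1b lay between 4.64 and 17.6 CPM.

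The T cell difference was not spread evenly over the 3 clusters, nor over cells. The summed mitotic level was 956 and 539 CPM in the Ctla4-led cluster, 979 and 974 CPM in the Cd8b1-led cluster of cytotoxic cells, and 1945 and 132 CPM in the Il17a-led cluster of gamma-delta T cell receptor genes. The Il17a-led cluster had only 24 control cells, of which 3 of the 23 deep enough to be thinned were mitotic, against 0 of 118 in the haplodeficient library. Without it the ratio of the class was 0.772, and without the highest cell of each library it was 0.659. In the Cd8b1-led cluster, the mitotic sums differed by less than their counting error.

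Macrophage-like cells had the opposite direction. Their mitotic sum was 240 CPM in the control and 345 CPM in the haplodeficient library, a ratio of 1.44 (1.34 to 1.54), and 16 of 19 mitotic and 15 of 15 S-phase members were higher. Top2a was 31.8 and 54.6 CPM, Mki67 26.8 and 53.3 CPM and Birc5 24.5 and 45.3 CPM, while Ube2c was 23.0 and 22.1 CPM. No mitotic member reached the minimum of the size rule, which called 0.804% of 2735 genes in this class. The difference lay in the Ccl12-led cluster (159 and 319 CPM), whereas the Gpnmb-led cluster of lipid-associated genes was 343 and 360 CPM. The Ccl12-led cluster held 72.3% of control and 53.5% of haplodeficient macrophage-like cells and the Gpnmb-led cluster 21.2% and 31.9%. With the cell cycle genes kept in the clustering, the ratio of the class was 0.921, so its direction was not kept when other cells entered the class.

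The Tnc-led and Retnla-led clusters and the dendritic cell-like cells had a lower mitotic sum in the haplodeficient library. In the Tnc-led cluster it was 1164 and 326 CPM, a ratio of 0.280 (0.259 to 0.304), with all 19 members lower, among them Top2a at 196 and 41.9 CPM, Ube2c at 136 and 16.9 CPM and Mki67 at 99.0 and 23.9 CPM. In the Retnla-led cluster the ratio was 0.366 (0.324 to 0.413), again with all 19 members lower. In that cluster 1 control cell held 143 of 750 mitotic UMIs. After thinning, 9 of 154 and 5 of 225 of its cells had at least 2 mitotic members, a difference of -3.62 percentage points (-8.67 to 0.348). Dendritic cell-like cells had a ratio of 0.742 (0.649 to 0.849) with 16 of 19 lower. NK cell-like cells went the other way, with a ratio of 6.15 (2.59 to 19.2) and 17 of 19 members higher, but their 19 control cells gave only 5 mitotic UMIs.

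Along the nephron and collecting duct, mitotic sums were lower in the haplodeficient library in 3 classes with intervals below 1. They were 168 and 85.8 CPM in principal or connecting tubule-like cells, a ratio of 0.511 (0.461 to 0.565) with 17 of 19 members lower. They were 129 and 63.9 CPM in descending thin limb-like cells, a ratio of 0.496 (0.444 to 0.554) with 19 of 19 lower. In distal convoluted tubule-like cells they were 138 and 91.3 CPM, a ratio of 0.661 (0.597 to 0.731) with 15 of 19 lower. In the order given, 1 control cell held 217 of 1056, 149 of 753 and 214 of 1163 mitotic UMIs. Without the highest cell of each library the ratios were 0.538, 0.559 and 0.600. Shares of mitotic cells in these classes are given below. Proximal tubule-like cells held 20.7 and 18.5 CPM, a ratio of 0.891 (0.703 to 1.12), and thick ascending limb-like cells 61.9 and 58.5 CPM, a ratio of 0.945 (0.855 to 1.05). In this last pair of classes the interval included 1 and the direction was not kept. The proximal tubule-like ratio ran from 0.475 with doublets kept to 1.59 with cell cycle genes in the clustering, and was 0.752 (0.594 to 0.943) after scaling by the median of ratios. The thick ascending limb-like ratio ran from 0.773 with doublets kept to 1.20 with equal cluster weights, and was 1.15 (1.04 to 1.27) with at most 25% mitochondrial UMIs. An Mmp7-led cluster, left unnamed, went the other way, at 70.5 and 142 CPM, a ratio of 2.01 (1.77 to 2.29) that was 1.63 without the highest cell of each library. The principal or connecting tubule-like class differed in makeup, since its Sprr2f-led cluster held 68.5% of the control and 98.1% of the haplodeficient cells. Within that cluster the mitotic sum was 228 and 86.7 CPM.

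In 3 classes the comparison turned on a single cell. In injured proximal tubule-like cells, marked by Havcr1, the ratio was 1.38 (1.22 to 1.55), but 1 haplodeficient cell held 245 of the 497 mitotic UMIs, and without the highest cell of each library the ratio was 0.888. In fibroblast-like cells the ratio was 0.329 (0.219 to 0.486), but 1 control cell held 73 of 83 UMIs, and without such cells the ratio was 1.19. The control value of Bub1b in fibroblast-like cells lies in the same small sum. In endothelial-like cells, the cell type in which Cre is driven, the sums were 63.1 and 72.0 CPM, a ratio of 1.14 (0.919 to 1.43), and 1 control cell held 64 of 116 UMIs. Without the highest cells that ratio was 1.85. It was 0.822 with at most 25% mitochondrial UMIs, 0.806 at the finer clustering and 0.828 with cell cycle genes in the clustering. No direction is therefore given for this class. Outside it, the mitotic sums were 20.7 and 37.3 CPM in the Cldn5- and Ptn-led cluster, a ratio of 1.81 (0.941 to 3.70). In the Cldn5- and Sox17-led cluster they were 55.3 and 39.7 CPM, a ratio of 0.717 (0.452 to 1.15).

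Kif23, which encodes the MKLP1 motor of the central spindle (chromosome 9, 61915905 to 61946774, with no overlapping gene), did not follow the other mitotic members. It led the mitotic set in UMIs over all cells, with 2063 of the control set (19.4%) and 1880 of the haplodeficient set (14.7%). Its level was 38.6 and 34.5 CPM in thick ascending limb-like cells, 39.0 and 29.2 CPM in distal convoluted tubule-like cells, 36.1 and 29.0 CPM in descending thin limb-like cells and 43.9 and 30.0 CPM in T cell-like cells. It was 1.93 and 0.879 CPM in proximal tubule-like cells and 7.30 and 8.03 CPM in macrophage-like cells. Mature neutrophils do not divide, and neutrophil-like cells held 42.4 CPM from 7 UMIs in the control and 21.3 CPM from 25 UMIs in the haplodeficient library, where Mki67 added 24 of the 69 mitotic UMIs of the class. The Spearman correlation of Kif23 with the sum of the other mitotic members over the 13 classes was 0.104 and 0.140, the lowest of the 19 in both libraries.

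Kif23 made up 62.3% and 59.0% of all mitotic UMIs of thick ascending limb-like cells, and 50 of 69 and 19 of 34 of those of intercalated-like cells. Without it the mitotic sums of thick ascending limb-like cells were 23.3 and 24.0 CPM, and those of descending thin limb-like cells were 92.8 and 35 CPM, a ratio of 0.377. The T cell and macrophage ratios without Kif23 were 0.589 and 1.45. After thinning, 1.03% and 1.36% of the cells with fewer than 2 other mitotic members still had a Kif23 UMI, the highest such shares among the mitotic members in both libraries. In cells with at least 2 others, the shares were 17.1% and 12.6%.

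The S-phase members were compared by role. For the start of replication, the cyclins Ccne1 and Ccne2, which with Cdk2 open S phase, gave 3.51 CPM each in control and 9.60 and 10.5 CPM in haplodeficient T cell-like cells. The origin licensing factor Cdc6 had 0 UMIs among 569604 in control T cell-like cells and 5.26 CPM in haplodeficient ones. Its partner Cdt1 had 28.1 and 28.8 CPM there and 13.1 and 15.4 CPM in macrophage-like cells. None of these 4 genes was eligible for the size rule in any class.

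The replicative helicase subunits were highest in T cell-like cells with few exceptions. There Mcm6 was 65.0 and 52.0 CPM, Mcm4 42.1 and 37.5 CPM, Mcm7 31.6 and 35.6 CPM, Mcm3 29.8 and 39.6 CPM, Mcm2 21.1 and 14.9 CPM and Mcm5 19.3 and 23.2 CPM. Mcm2 in the haplodeficient library was 15.1 CPM in intercalated-like cells, and Mcm3 in the control was 30.7 CPM in macrophage-like cells, both within counting error of the T cell value. Pcna, the sliding clamp of DNA polymerase, led the S-phase set in UMIs, with 32.1% and 30.5% of it. It was present in every class, from 27.0 and 30.6 CPM in proximal tubule-like cells to 98.3 and 104 CPM in T cell-like cells.

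Among the enzymes of nucleotide supply, Rrm2 was 40.4 and 40.6 CPM in T cell-like cells and had 0 UMIs in neutrophil-like cells of both libraries. Tyms, thymidylate synthase, was 50.9 and 47.1 CPM in T cell-like cells. Rrm1, the constitutive subunit of the reductase, was instead highest in pericyte or smooth muscle-like cells, at 84.2 and 82.7 CPM, against 47.4 and 34.7 CPM in T cell-like cells. The pericyte-like class had 21 mitotic UMIs in each library and, after thinning, 0 of 182 and 0 of 256 mitotic cells, which allow up to 1.65% and 1.17%. Rrm1 overlaps Gm45399 on its own strand. Hells, a chromatin remodeller of replicating heterochromatin, was 38.6 and 55.4 CPM in T cell-like cells.

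Between the libraries, 0 S-phase members passed the size rule in any of the 13 classes, but only 12 of their 195 pairs of member and class were eligible for it. The T cell S-phase sum was 520 and 538 CPM, a ratio of 1.04 (0.915 to 1.18), beside the mitotic ratio of 0.592. The intervals of these ratios do not overlap, but they count each UMI as independent. In the control, 1 T cell-like cell held 112 of the 647 mitotic UMIs. In shares of cells after thinning, described below, the T cell mitotic difference was -2.04 percentage points (-6.76 to 1.03). The S-phase difference was -0.0206 percentage points (-4.50 to 2.82). Both intervals include 0 and they overlap, so the shares of cells do not separate the sets. S-phase ratios had intervals above 1 in macrophage-like cells (1.35, 1.26 to 1.45), proximal tubule-like cells (1.28, 1.16 to 1.42), principal or connecting tubule-like cells (1.22, 1.12 to 1.33), thick ascending limb-like cells (1.21, 1.13 to 1.29), injured proximal tubule-like cells (1.15, 1.04 to 1.27) and distal convoluted tubule-like cells (1.14, 1.05 to 1.24). The free RNA of the haplodeficient library was also richer in S-phase members (198 against 112 CPM), and its part in these ratios was not tested. In proximal tubule-like and thick ascending limb-like cells, the median log2 ratio over all eligible genes was 0.19 and 0.14, and scaling by the median of ratios brought the S-phase ratios to 1.08 (0.981 to 1.20) and 1.11 (1.04 to 1.19).

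Whether the members met in the same cells was read from cells thinned to 1000 UMIs each, which left out 381 control and 374 haplodeficient shallower cells. A cell with UMIs of at least 2 different mitotic members is called mitotic here. There were 84 of 8356 such cells in the control, 1.01% (0.803 to 1.24, Clopper-Pearson), and 133 of 8848 in the haplodeficient library, 1.5% (1.26 to 1.78), a difference of 0.498 percentage points (0.165 to 0.834). Keeping only cells with at most 25% mitochondrial UMIs gave 0.309 (-0.0675 to 0.674), so 0 then lay inside the interval. Without thinning the shares were 7.43% and 8.84%. Neutrophil-like cells gave the background, with 0 of 96 and 0 of 570 cells, which allow shares of up to 3.12% and 0.526%. Their shares without thinning were 0.971% and 0.649%, and their median depths were 1559 and 1774 UMIs.

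Leukocyte-like populations (macrophage-, monocyte-, dendritic-, plasmacytoid-, neutrophil-, T and NK cell-like cells with the Retnla-led cluster) made up 1298 of the 8356 control and 3662 of the 8848 haplodeficient cells of that depth. They held 43 of the 84 control mitotic cells (51.2%) and 108 of the 133 haplodeficient ones (81.2%). Within them the share of mitotic cells was 3.31% and 2.95%, a difference of -0.364 percentage points (-1.59 to 0.672). Neutrophil-like and monocyte-like cells, which held almost no mitotic cells, were 96 and 51 of the 1298 control cells. In the haplodeficient library they were 570 and 371 of the 3662, so this pooled difference also mixes class makeup. Within the named nephron and collecting duct classes, without the Mmp7-led and Slc26a4-led clusters, the share was 0.504% and 0.346%. The difference was -0.158 percentage points (-0.425 to 0.154). Proximal tubule-like cells, with few mitotic cells, were 2965 of the 5752 control but 386 of the 3182 haplodeficient cells of this pool. Its class makeup thus differed between the libraries, and the pooled difference is not one within classes. With every class given the same weight in both libraries, the difference over all cells was -0.277 percentage points, the reverse of the unweighted sign.

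By class, 11 of 176 control T cell-like cells were mitotic, 6.25% (3.16 to 10.9), and 43 of 1021 haplodeficient ones, 4.21% (3.06 to 5.63), with 11.7% and 7.79% without thinning. In macrophage-like cells the shares were 18 of 728, 2.47% (1.47 to 3.88), and 49 of 1234, 3.97% (2.95 to 5.22), with 6.76% and 10.8% without thinning. The intervals of both pairs overlap. The Tnc-led cluster had 11 of 90 cells, 12.2% (6.26 to 20.8), and 7 of 273, 2.56% (1.04 to 5.21), a difference of -9.66 percentage points (-18.1 to -3.78). Without thinning its shares were 18.5% and 20.4%, at median depths of 7882.5 and 8395 UMIs, so no order is read from them. Principal or connecting tubule-like cells had 9 of 503, 1.79%, and 1 of 606, 0.165%, a difference of -1.62 percentage points (-3.21 to -0.485), with 10.4% and 8.72% without thinning.

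Most other classes held few mitotic cells. Descending thin limb-like cells had 2 of 348 (0.575%) and 2 of 651 (0.307%), a difference of -0.267 percentage points (-1.78 to 0.640). Distal convoluted tubule-like cells had 3 of 563 (0.533%) and 3 of 373 (0.804%), a difference of 0.271 percentage points (-0.880 to 1.84). Both intervals include 0, beside the lower mitotic sums of these classes. Injured proximal tubule-like cells had 7 of 450 (1.56%) and 2 of 226 (0.885%), whereas proximal tubule-like cells had 5 of 2965 (0.169%) and 1 of 386 (0.259%). Endothelial-like cells had 0 of 250, which allows up to 1.20%, and 3 of 603 (0.498%). The Cldn5- and Ptn-led cluster had 0 of 88 and 0 of 155, and the Cldn5- and Sox17-led cluster 0 of 34 and 0 of 61. Pericyte or smooth muscle-like cells and intercalated-like cells had none, with limits from 1.17% to 2.86%. An Slc26a4-led cluster of deep cells, with medians of 27031 and 33568 UMIs, passed 9 of 9 intercalated markers. It also passed 8 of 8 principal or connecting tubule markers and stayed unnamed. After thinning it had none of 303 and of 233 cells, but 24.1% and 29.2% without thinning. Kif23 gave 47.2% and 55.9% of its mitotic UMIs.

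**Figure D3:**
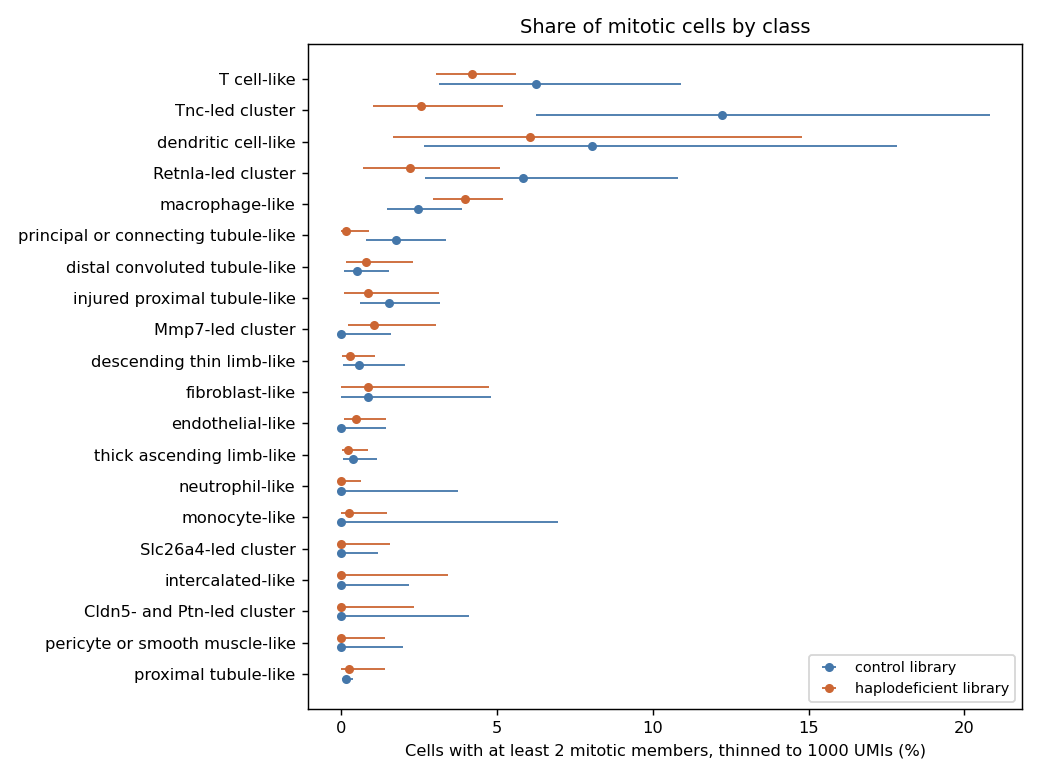
Share of cells with UMIs of at least 2 mitotic members after thinning to 1000 UMIs, in percent, by class and library, with 95% Clopper-Pearson intervals. The highest control shares are those of the Tnc-led cluster (12.2%), dendritic cell-like cells (8.06%) and T cell-like cells (6.25%), and neutrophil-like cells are at 0 in both libraries.

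S phase and mitosis were separated in the same thinned cells. At least 2 S-phase members were found in 108 control cells (1.29%) and 173 haplodeficient cells (1.96%), and in 28.7% and 30.1% without thinning. The difference of 0.663 percentage points (0.285 to 1.04) was 0.406 (-0.0187 to 0.820) with at most 25% mitochondrial UMIs. In the control, 83 of these cells held S-phase members alone, 25 also met the mitotic rule, and 59 cells met the mitotic rule alone. In the haplodeficient library these were 147, 26 and 107 cells. T cell-like cells had S-phase shares of 5.11% and 5.09%, macrophage-like cells 2.34% and 2.76%, and neutrophil-like cells 0 of 96 and 1 of 570. Dendritic cell-like cells had 8 of 62 (12.9%) and 2 of 66 (3.03%), a difference of -9.87 percentage points (-20.6 to -0.237). Mitotic cells carried a mean of 1.15 and 1.07 S-phase UMIs after thinning, other cells 0.129 and 0.191.

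Mitotic cells had more UMIs than others before thinning, with medians of 12908 against 9255 in the control and 8992 against 5691 in the haplodeficient library. The doublet caller had removed 22 of 106 mitotic cells (20.8%) and 28 of 161 (17.4%), against 7.49% and 8.03% of all cells of that depth. Their median mitochondrial share was 4.08% and 2.09%, below the 10.2% and 2.71% of other cells. The part of these in the shares was not tested.

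**Figure D4:**
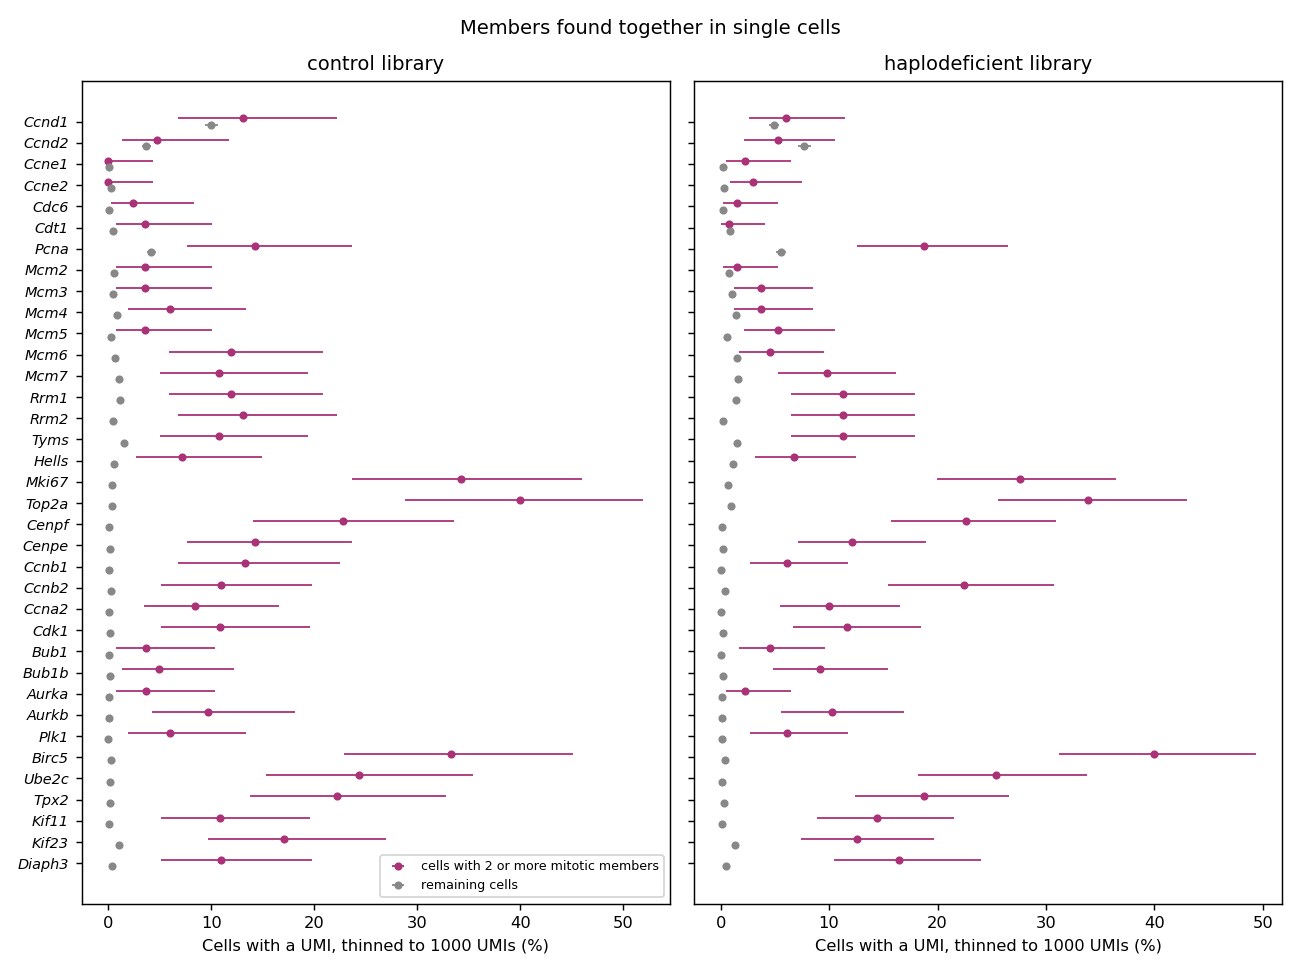
Share of thinned cells with a UMI of each member, in percent, in cells with at least 2 mitotic members (for a mitotic member, at least 2 others) and in the remaining cells, by library, with 95% Clopper-Pearson intervals. Top2a, Birc5 and Mki67 lie far to the right in mitotic cells, while Ccnd1 and Ccnd2 differ little between both kinds of cell.

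Members differed in how closely they marked these cells. For each mitotic member the cells were chosen by at least 2 others. Top2a was found in 40.0% of such control cells against 0.362% of the rest, and in 33.9% against 0.963% in the haplodeficient library. Birc5 was found in 33.3% against 0.242% and in 40.0% against 0.355%, and Mki67 in 34.2% against 0.326% and in 27.6% against 0.711%. Among S-phase members, mitotic cells held Rrm2 in 13.1% against 0.411% and in 11.3% against 0.241%, but Pcna in 14.3% against 4.13% and in 18.8% against 5.54%. Ccnd1 was found in 13.1% against 9.99% and in 6.02% against 4.95%, and Ccnd2 in 4.76% against 3.69% and in 5.26% against 7.71%, so neither D-type cyclin separated mitotic from other cells.

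The D-type cyclins, which bind Cdk4 and Cdk6 in G1, were both high in endothelial-like cells but differed in other classes. Ccnd1 (chromosome 7, 144929931 to 144939925) was high in endothelial-like (200 and 186 CPM), proximal tubule-like (187 and 266 CPM), injured proximal tubule-like (137 and 149 CPM) and principal or connecting tubule-like cells (146 and 81.8 CPM), and in control thick ascending limb-like cells (165 CPM). It was lowest in neutrophil-like (6.06 and 4.25 CPM) and T cell-like cells (10.5 and 6.19 CPM). Ccnd2 (chromosome 6, 127125162 to 127152193) was high in endothelial-like (397 and 230 CPM), T cell-like (265 and 230 CPM) and pericyte or smooth muscle-like cells (220 and 217 CPM). It was nearly absent from proximal tubule-like cells, at 0.406 and 1.10 CPM. The Spearman correlations of both genes with the mitotic sum lay between -0.275 and 0.297.

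Ccnd1 was lower in thick ascending limb-like cells of the haplodeficient library and Ccnd2 was higher in distal convoluted tubule-like cells. Ccnd1 had 1767 UMIs in 384 of 811 control cells and 857 UMIs in 312 of 892 haplodeficient cells, or 165 against 52.5 CPM, a log2 ratio of -1.56. The size rule called 1.91% of 3510 genes in this class, with 1.08% lower in the haplodeficient library. The difference sat in the Egf-led cluster, at 268 against 75.9 CPM, a ratio of 0.284 (0.244 to 0.328), while the Enox1-led cluster had 53.6 against 47.8 CPM, a ratio of 0.892 (0.774 to 1.03). The Egf-led cluster made up 75.2% of the control and 53.1% of the haplodeficient class, and with equal cluster weights the log2 ratio was -1.47. Free RNA held 115 and 57.1 CPM of Ccnd1, a difference in the same direction whose part in this result was not tested. Ccnd1 overlaps LTO1 on the other strand and no gene on its own strand.

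Ccnd2 in distal convoluted tubule-like cells had 406 UMIs in 104 of 592 control cells and 743 UMIs in 170 of 379 haplodeficient cells, or 48.2 against 118 CPM, a log2 ratio of 1.21. The size rule called 1.71% of 3501 genes there, and 0.686% as higher. Free RNA also held more Ccnd2 in the haplodeficient library, at 40.6 against 11.9 CPM, and that part was not tested. With at most 25% mitochondrial UMIs the log2 ratio was 0.97, just short of the rule. The plot of both cyclins by class shows the level of each.

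**Figure D5:**
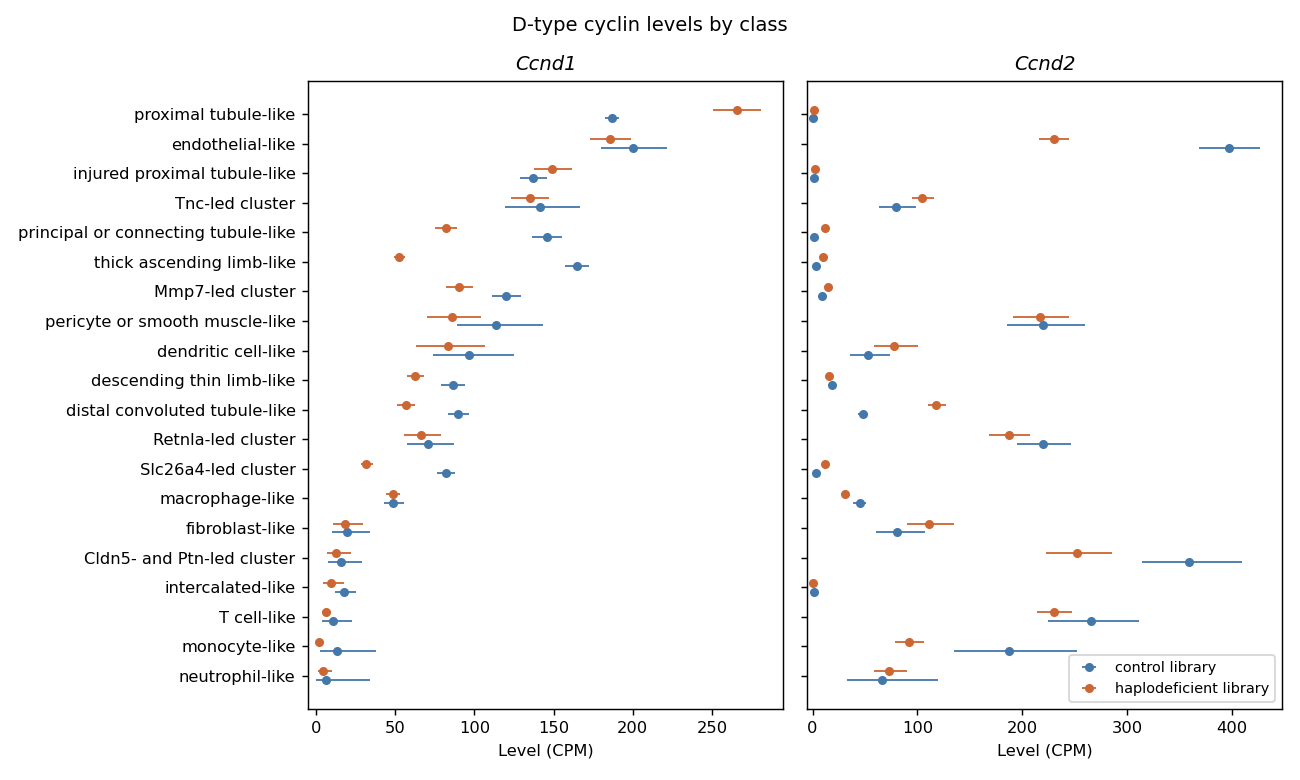
Level of Ccnd1 and Ccnd2 in each class and library, in CPM, with 95% Poisson intervals. Ccnd1 in thick ascending limb-like cells is at 165 and 52.5 CPM, Ccnd2 in distal convoluted tubule-like cells at 48.2 and 118 CPM, and T cell-like cells hold Ccnd2 (265 and 230 CPM) with little Ccnd1.

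Over all 13 classes, 32 of 468 pairs of member and class were eligible for the size rule and 4 passed it, the ones named above. The rule called between 0.804% and 4.76% of all eligible genes in a class (1.19% in descending thin limb-like, 0.893% in endothelial-like, 2.75% in fibroblast-like, 1.1% in injured proximal tubule-like, 2.6% in intercalated-like, 4.76% in neutrophil-like, 0.915% in pericyte or smooth muscle-like, 2.06% in principal or connecting tubule-like and 3.24% in proximal tubule-like cells). Other genes of the cycle were taken from broader lists. Of 30 further S-phase genes and 32 further mitotic genes, 0 passed the rule in any class. Outside T cell-like cells, at most 3 genes of either list were eligible in a class, so few could pass. At a minimum mean of 10 CPM, by which 1.83% of genes were called in principal or connecting tubule-like cells, Cenpf and Kif23 also passed there, both lower in the haplodeficient library. In T cell-like cells 9 and 7 of the further genes were eligible, with median log2 ratios of -0.18 and -0.39. Hmgb2, a chromatin protein of dividing cells in the second list, was 1322 and 1076 CPM there.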

How the data were processed

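The counts analysed are whole-number UMI counts per gene and barcode, deposited by the authors as unfiltered matrices. They were made with Cell Ranger 4, per the file headers, on mm10, per the submitters' processing notes. The members and the other lists were chosen with earlier results of these data known. Barcodes with at least 500 UMIs, 200 genes and at most 50% mitochondrial UMIs were kept. Doublets were removed with Scrublet in scanpy 1.11.5 at 0.8% per 1000 cells. Cells were clustered with leidenalg 0.10.2 (resolution 1, 2000 variable genes, 30 components, 15 neighbours) after leaving out 292 genes. These were the members, the broader S-phase and mitotic lists, numbered Hist genes, Cenp genes, and genes correlated with the summed members at 0.2 or more. A cluster was named from at least 3 markers found in at least 10% of its cells at 2-fold or more. It stayed unnamed where its 10 leading genes held at least as many markers of another class. Deep cells that passed the markers of another class also left a cluster unnamed. Levels are CPM of the UMIs of a class. No test between groups was possible with 1 library per group. Intervals are exact Poisson, conditional binomial for ratios, Clopper-Pearson for shares and Newcombe for their differences, at 95%, from scipy 1.17.1. Limits for shares of 0 are 3 counts of the total. A member is named where it passed the size rule, had the highest or lowest level over classes, or led its set, and by role otherwise. The size rule was run on simulated independent counts in which the changed genes differed by more than 2-fold. Such counts do not gather in single cells as UMIs did here, so the run does not check that. Alternatives were doublets kept, other cell filters, clusterings, thinning depths, scalings, pseudocounts and minimum levels. A cell hashing library mentioned in the labels was not used here.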

Additional observations from a re-analysis of the deposited data

How the results depend on the processing

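No paired analysis was possible because the groups share only replicate number 1 and no result comes from a test. The ratios of summed mitotic members (haplodeficient over control) changed as follows. With doublets kept they were 0.495 in T cell-like, 1.81 in endothelial-like, 0.847 in fibroblast-like, 1.24 in macrophage-like, 1.71 in pericyte-like, 0.475 in proximal tubule-like and 0.773 in thick ascending limb-like cells. With at least 1000 UMIs they were 1.57 in injured proximal tubule-like and 1.27 in macrophage-like cells. With at most 25% mitochondrial UMIs they were 0.433 in descending thin limb-like, 0.577 in distal convoluted tubule-like, 0.822 in endothelial-like, 1.96 in injured proximal tubule-like, 1.26 in macrophage-like, 0.611 in proximal tubule-like and 1.15 in thick ascending limb-like cells. At resolution 2 they were 0.806 in endothelial-like and 1.24 in macrophage-like cells. With cell cycle genes in the clustering they were 0.574 in descending thin limb-like, 0.812 in distal convoluted tubule-like, 0.828 in endothelial-like, 1.16 in injured proximal tubule-like, 0.653 in principal or connecting tubule-like and 1.59 in proximal tubule-like cells, and reversed to 0.921 in macrophage-like cells. With the class set from each cell alone they were 0.431 in descending thin limb-like, 1.06 in injured proximal tubule-like, 1.19 in macrophage-like, 1.72 in pericyte-like and 0.694 in principal or connecting tubule-like cells. The next settings were chosen after seeing the data. Without the highest cell of each library they were 0.659 in T cell-like, 0.559 in descending thin limb-like and 1.85 in endothelial-like cells, and reversed to 1.19 in fibroblast-like and 0.888 in injured proximal tubule-like cells. With equal cluster weights they were 0.393 in principal or connecting tubule-like and 1.20 in thick ascending limb-like cells, without the Il17a-led cluster 0.772 in T cell-like cells, and without Kif23 0.377 in descending thin limb-like, 1.26 in intercalated-like and 3.09 in neutrophil-like cells.

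The S-phase ratios moved to 1.30 in injured proximal tubule-like and 1.07 in proximal tubule-like cells with doublets kept, 1.31 in thick ascending limb-like cells with at least 1000 UMIs, 1.05 in distal convoluted tubule-like cells at 25% mitochondrial UMIs and 1.35 in principal or connecting tubule-like cells with cell cycle genes in the clustering. They were 1.01 in distal convoluted tubule-like, 1.31 in injured proximal tubule-like and 1.21 in macrophage-like cells with the class from each cell alone, 1.08 in proximal tubule-like and 1.11 in thick ascending limb-like cells under median-of-ratios scaling, and 1.17 in macrophage-like, 1.06 in principal or connecting tubule-like and 1.37 in thick ascending limb-like cells with equal cluster weights. At 25% mitochondrial UMIs the differences in mitotic and S-phase share were 0.309 and 0.406 percentage points, with intervals that include 0. With classes weighted equally, the difference in mitotic share reversed to -0.277 and that in S-phase share to -0.0922 percentage points, and thinning to 2000 UMIs gave an S-phase difference of 2.59 percentage points. The size rule passed 4 pairs of member and class, 12 with no filter on low counts and 3 to 6 otherwise, and the 4 were among them in every setting but the 25% mitochondrial limit, which kept 3. At a minimum of 10 CPM, where 1.83% of 9123 genes were called, Cenpf (18.8 and 6.40 CPM) and Kif23 (31.7 and 12.8 CPM) of principal or connecting tubule-like cells also passed. In total 201 values stayed within the counting interval of the reported one (the count of pairs, within 1.5 times), 53 moved and 5 reversed. A value was counted as reversed only where the reported interval excluded no difference. Other values could change direction and be counted as moved or unchanged, as did the pericyte-like mitotic ratio, from 0.530 to 1.71 with doublets kept. The 201 include shares over all cells that could not change. These shares were carried over for resolution 2, cell cycle genes in the clustering and the class from each cell alone. At 1000 UMIs they used the same thinned cells. The cause of each change was not tested where no sentence above gives it. With 1 library per group, differences between libraries cannot be told apart from differences between animals, dissociations or depths.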

Other observations

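The inhibitors of cyclin-dependent kinases, which hold cells out of the cycle, were followed beside the members. None of the 7 genes passed the size rule in any of the 13 classes. Cdkn1a (p21), the p53 target that arrests cells in G1, was 777 and 1161 CPM in descending thin limb-like, 141 and 287 CPM in principal or connecting tubule-like and 164 and 292 CPM in distal convoluted tubule-like cells. Macrophage-like cells held 435 and 412 CPM and T cell-like cells 65.0 and 115 CPM. Cdkn2a (p16 and p19Arf) was, of the 13 classes, highest in descending thin limb-like cells, at 25 and 73.6 CPM, followed by T cell-like cells, at 19.3 and 15.2 CPM, both below the minimum of the size rule. Cdkn2b (p15) was also highest in descending thin limb-like cells, at 58.0 and 96.3 CPM. Cdkn1c (p57) was 479 and 309 CPM in fibroblast-like and 273 and 183 CPM in endothelial-like cells.

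Of 26 other regulators, only Ccnd3, the third D-type cyclin, passed the rule, in neutrophil-like cells, at 575 and 275 CPM from 95 and 323 UMIs, a log2 ratio of -1.05. The rule called 4.76% of genes in that class, its highest share. Cdk4, the kinase partner of the D-type cyclins, was 43.0 and 85.5 CPM in proximal tubule-like cells, a log2 ratio of 0.92.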
